A study of Mus musculus with 50 samples.

Results

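The 33 genes described here are the enzymes of glycolysis, the carriers that bring glucose into a cell and take lactate across its membrane, the kinases that set how much pyruvate enters the mitochondrion, and the hypoxia factor Hif1a with 2 of the hydroxylases that act on it. They were chosen by name, and all 33 were found among the 19224 gene rows of the count matrix. Their choice used no measured value, although it was made with earlier results of these data known. Levels and the balance between paralogues (related genes for the same step, written here as a family) were compared between non-cycling cells with the stem-cell gene Procr, cycling cells, and cells with markers of mature blood lineages.

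The cells came from mice in which 1 haematopoietic stem cell, taken from a β-actin-GFP transgenic B6-Ly5.2 donor, had been given together with whole marrow competitor cells of B6-Ly5.2 mice to a lethally irradiated B6-Ly5.2 recipient. All groups therefore share the irradiation, the competitor cells and a graft that starts from 1 cell, and the GFP transgene, driven by the β-actin promoter, marks progeny of that cell. The 50 samples were taken 1 month (10 samples), 4 months (26 samples) or 12 months (14 samples) after transplantation, from marrow alone or, in 5, 4 and 6 samples respectively, from marrow with spleen. Cells enriched for c-Kit were sorted one at a time by CD201 (the protein of Procr), CD150, CD48, Sca-1, c-Kit and a lineage cocktail (B220, Gr-1 and TER-119), or by GFP, and were read with a 3′-enriched, barcoded Smart-seq2 (STRT-seq) protocol. The sources used here do not give the age of the animals. None of the cell names holds a sample title, so cells could not be traced to the month, organ or gate they came from; the matrix was treated as 1 pooled sample, months were not compared, and no p-value was made from cells.

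Glycolysis splits glucose into pyruvate in the cytosol. Lactate dehydrogenase then turns pyruvate into lactate, or back again, and pyruvate dehydrogenase sends it on to the mitochondrion unless pyruvate dehydrogenase kinases switch that enzyme off. When oxygen is low, the HIF prolyl hydroxylases (the Egln proteins) stop marking Hif1a protein for destruction, and Hif1a binds promoters of many glycolytic genes through a short core sequence. Long-lived stem cells of adult marrow are known for a reliance on glycolysis and for pyruvate dehydrogenase kinases that hold pyruvate back from the mitochondrion. The transcript of Hif1a says little of the protein, which is set mainly by its breakdown.

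The promoters of 3 members are printed because Ldhb has the log2 ratio farthest from 0 among the members called in the comparisons of erythroid-marker cells below, Ldha is its partner in the same enzyme, and Slc16a1 carries the lactate they make or use. Each is a 300-base window around an annotated start from RefSeq on GRCm38.p6, read 5′ to 3′ on the strand of the gene. Capitals mark the HIF-type cores ACGTG and GCGTG, searched on both strands, so their reverse complements CACGT and CACGC are in capitals too. CACGTG reads the same on both strands and holds ACGTG on each, so it counts for 2.
Ldha, chr7:46845554-46845853, plus strand: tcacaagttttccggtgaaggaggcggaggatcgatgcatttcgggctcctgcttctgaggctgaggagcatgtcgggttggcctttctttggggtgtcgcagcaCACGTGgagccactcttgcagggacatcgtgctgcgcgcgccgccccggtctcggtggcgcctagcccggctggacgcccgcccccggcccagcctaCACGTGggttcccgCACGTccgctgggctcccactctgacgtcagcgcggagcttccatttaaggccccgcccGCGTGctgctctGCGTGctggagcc
Ldhb, chr6:142507908-142508207, minus strand: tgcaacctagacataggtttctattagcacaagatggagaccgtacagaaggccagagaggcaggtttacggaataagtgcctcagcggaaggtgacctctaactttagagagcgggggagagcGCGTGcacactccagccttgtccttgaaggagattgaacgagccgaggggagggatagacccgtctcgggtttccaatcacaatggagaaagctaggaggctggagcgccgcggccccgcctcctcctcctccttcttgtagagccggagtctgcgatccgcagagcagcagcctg
Slc16a1, chr3:104638414-104638713, plus strand: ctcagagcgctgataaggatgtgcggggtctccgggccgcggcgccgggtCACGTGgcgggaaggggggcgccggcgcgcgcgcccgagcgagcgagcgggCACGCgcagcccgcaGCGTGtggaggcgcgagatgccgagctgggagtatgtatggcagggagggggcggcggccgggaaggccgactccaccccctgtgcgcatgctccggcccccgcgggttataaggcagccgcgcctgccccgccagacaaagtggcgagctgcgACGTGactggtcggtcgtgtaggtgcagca
The Ldha window held 5 matches to ACGTG and 2 to GCGTG, with 2 copies of CACGTG among them. The Ldhb window held 1 match to GCGTG and no ACGTG. The Slc16a1 window held 3 matches to ACGTG and 2 to GCGTG, with 1 copy of CACGTG. In RefSeq, 32 of the 33 members matched at least 1 promoter; Slc2a3 did not. Of their 48 promoters, 39 (81.2%) held ACGTG or GCGTG, against 43.8% of all 32851 promoters of that length and 64.2% of the 7067 promoters of genes expressed at the minimum level used below. These matches describe the letters only.

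On the GRCm38 annotation Ldha spans chr7:46841475-46855627 on the plus strand, and the promoter printed above, the first of 2 in RefSeq, lies inside that span. Ldhb spans chr6:142490249-142507957 on the minus strand. Slc16a1 spans chr3:104638668-104658462, Pkm chr9:59656368-59679375, Tpi1 chr6:124810586-124814296 (minus strand) and Aldoa chr7:126795234-126800751 (minus strand).

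Of 4271 cells, 4185 passed the filter (1000 or more genes with a count and no more than 10% of counts from mitochondrial genes), with a median of 122013 counts per cell over 67 libraries of 1665151 to 26184494 counts. Cells were put into classes by genes that are not members. A cell was Procr+ at 10 CPM (the count of a gene scaled to a fixed class or cell total) or more of Procr, and cycling where the summed CPM of 33 cell-cycle genes passed 116, the cut that best separates their log values into a low and a high part. Without the cells that also met a lineage-marker list (described below), this left 1006 Procr+ non-cycling cells from 59 libraries, in which the stem-cell genes Procr (358 CPM), Hlf (226 CPM) and Mecom (164 CPM) were present and Mki67, a proliferation marker, was at 1.56 CPM. That cut is low, since 63.6% of kept cells lay above it and 14.2% within 0.5 log2 units of it. After seeing the data, a second cut of 2895 CPM was added at the emptiest point between the 2 modes of the score. It gave 117 Procr+ cells, called upper-mode cycling cells here, with Mki67 at 269 CPM and Procr at 132 CPM. The 1146 Procr+ cells between both cuts are called intermediate. A lineage-marker cell had at least 3 genes of a marker list at 50 CPM or more and Procr under 10 CPM. Cells that met a marker list and also had Procr at 10 CPM or more, 780 in number (18.6% of kept cells, Procr at 249 CPM), were put in neither Procr+ nor lineage-marker classes and were not compared; 71.2% of them lay above the first cycling cut. Ldha was at 929 CPM, Ldhb at 212 CPM, Aldoa at 747 CPM and Bpgm at 140 CPM in them. The number of lineage-marker cells was 281 for neutrophil markers, 62 for B, 54 for megakaryocyte, 44 for plasma, 42 for macrophage, 41 each for erythroid and primary-granule, and 40 for T markers.

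The libraries were not alike. In 10 libraries, with 641 cells, cells with at least 3 neutrophil markers were the majority. They held 221 of the 281 neutrophil-marker cells, 36 of 62 B, 21 of 40 T, 19 of 42 macrophage and 12 of 41 erythroid, and 286 of the 780 cells with both markers and Procr, but 4 of the 1006 Procr+ non-cycling cells, from which cells with markers had been left out. Each result on the lineage-marker classes was also computed without these libraries. For neutrophil-, primary-granule-, macrophage- and plasma-marker cells 1 library held at least 5 cells of the class and at least 5 Procr+ non-cycling cells, and for megakaryocyte-marker cells 2. For erythroid-, B- and T-marker cells no library did. Their library ranges and those of Procr+ non-cycling cells thus come from different libraries, and class cannot be told apart from library there. The stem-cell gene Hlf stood at 6.61 CPM in erythroid-marker, 19.7 in B-marker, 2.75 in T-marker and 11.1 in plasma-marker cells, but at 58.6 in neutrophil-marker, 119 in macrophage-marker, 116 in megakaryocyte-marker and 168 in primary-granule-marker cells. The latter 4 classes thus hold many cells with stem-cell transcripts, and the first 4 hold some. Results of every class were repeated with Mecom and Hlf each under 10 CPM. Of the first 4 classes this left 31 of 41 erythroid-marker, 49 of 62 B-marker, 31 of 40 T-marker and 31 of 44 plasma-marker cells. Of the latter 4 it left 167 neutrophil-marker, 20 macrophage-marker, 10 megakaryocyte-marker and 7 primary-granule-marker cells, the last 2 numbers being under the 20 cells asked of a class. The primary-granule list was at a median of 718 summed CPM in Procr+ non-cycling cells themselves, through Prtn3 (820 CPM in the pooled class). Of 95 cell barcodes, 93 occurred in 2 or more libraries, so a cell was identified by library and barcode together.

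Procr+ non-cycling cells carried every step of glycolysis, with the largest counts in Ldha, Aldoa and Pkm. The counts did not follow the order of the steps. Levels below are CPM from the summed counts of a class, and the range after each is over the 49 libraries with at least 5 such cells. Ldha, the lactate dehydrogenase subunit that favours lactate formation, was at 1015 CPM (642 to 1509). Aldoa, the aldolase of most tissues, was at 914 CPM (545 to 1313), and Pkm, a pyruvate kinase, at 802 CPM (601 to 1080). Tpi1, triose phosphate isomerase, was at 486 CPM (204 to 1000), and Gpi1, glucose phosphate isomerase, at 429 CPM (317 to 773). The order of neighbours such as Ldha, Aldoa and Pkm is not separated by these ranges. Counts from 3′ ends still depend on transcript length and on the last exon, so levels were also divided by the longest annotated transcript in kilobases. Per kilobase, Aldoa (590) and Ldha (559) led, followed by Pkm (330), Tpi1 (302), Ldhb (201), Eno1 (165) and Gpi1 (134).

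**Figure D1:**
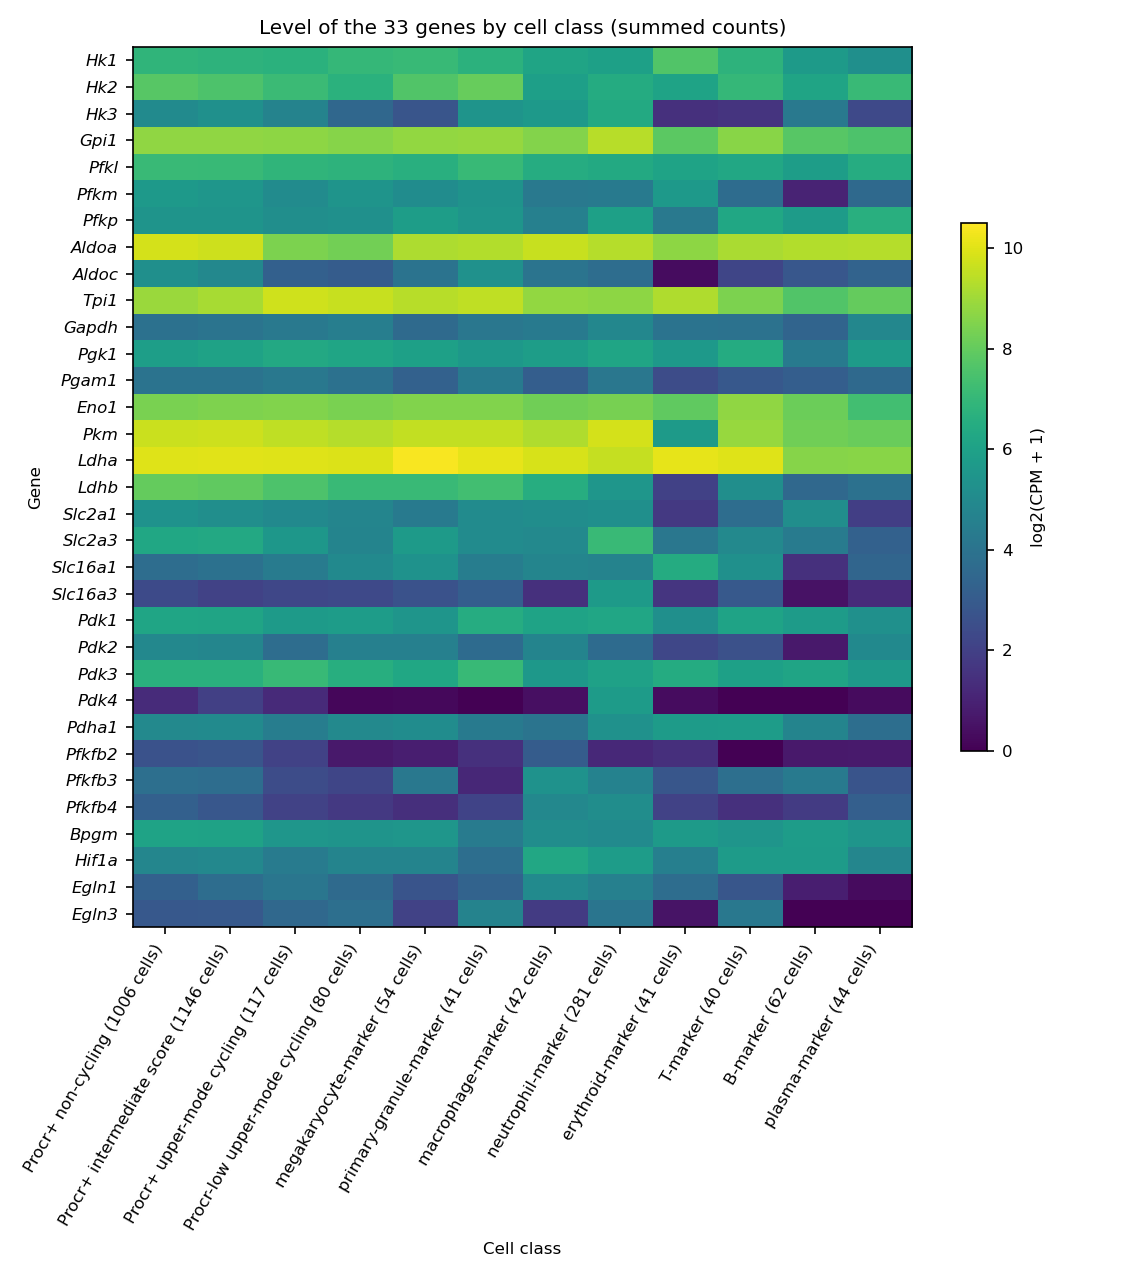
Level of each of the 33 genes (rows) in each of 12 cell classes (columns), as log2(CPM + 1) of the summed counts of the class. Yellow is high and dark blue low. Ldha, Aldoa and Pkm are yellow in Procr+ non-cycling cells, and Ldhb and Pkm darken in the erythroid-marker column, at 3.12 and 52.1 CPM.

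Hexokinases, phosphofructokinases and genes at the edges of the pathway were lower. Hk2, an inducible hexokinase, was at 215 CPM but ranged from 43.1 to 1358 CPM between libraries, a wider spread than that of Ldha. Hk1 was at 117 CPM and Hk3 at 31.8 CPM. Pfkl, phosphofructokinase of the liver type, was at 139 CPM, Pfkm at 49.0 CPM and Pfkp at 42.7 CPM. Among glucose carriers Slc2a3 was at 75.4 CPM and Slc2a1 at 39.7 CPM, and among lactate carriers Slc16a1 was at 12.5 CPM and Slc16a3 at 4.09 CPM. The pyruvate dehydrogenase kinases followed the order Pdk3 (99.4 CPM), Pdk1 (71.4 CPM), Pdk2 (28.6 CPM) and Pdk4 (1.45 CPM), with Pdha1, a subunit of their target enzyme, at 29.5 CPM. Bpgm, which makes the bisphosphoglycerate that tunes haemoglobin, was at 67.2 CPM. Hif1a was at 27.3 CPM, ranging from 0 to 133 CPM, and its hydroxylases Egln1 (8.22 CPM) and Egln3 (6.47 CPM) were near the floor of what these libraries resolve. The bifunctional enzymes that set the phosphofructokinase activator were also low, at 13.3 CPM for Pfkfb3, 8.32 CPM for Pfkfb4 and 5.17 CPM for Pfkfb2.

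Some levels are limited by how reads can be assigned. For Gapdh, 90.5% of the 50-base words in the last 500 bases of its transcript occur in other annotated genes, 213 of 218 of them pseudogenes, and its 14.1 CPM is therefore uncertain. Eno1 (334 CPM) shares 75.2% of such words and Ldhb 24.4%, the latter with 1 pseudogene. Ldha and Pkm share none in that window, although 16.6% and 34.4% of the words of their whole transcripts are shared. Aldoa shares 3.33% in that window and 13.5% over the whole transcript, and 2 annotated genes carry its symbol. For Gpi1 these shares are 4.21% and 19.3%. Tpi1 shares none in that window and 7.51% over the whole transcript, and 6.8% of its last 500 bases lie under exons of Spsb2. Pgk1 (58.5 CPM) and Pgam1 (15.0 CPM) share 68% and 41.5% over the whole transcript. The last 500 bases of Pdha1 lie under exons of the neighbouring gene Map3k15 for 35.6% of their length. The sources used here do not say whether counting used strand, so values of Pdha1 and its neighbour may mix.

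Most families had a clear leading member in Procr+ non-cycling cells. In shares of the summed CPM per kilobase, Aldoa made 97.9% of the aldolase pair and led in 49 of 49 libraries. Ldha made 73.6% and Ldhb, the subunit of heart-type lactate dehydrogenase, 26.4%, with the Ldhb share between 16.1% and 34.1% in every library. Pfkl made 63.0% of the phosphofructokinases and led in 47 of 49 libraries, and Pdk3 made 63.6% of the kinases and led in 46 of 49. Slc16a1 made 75.0% of the lactate carriers and led in 38 of 45 libraries with a count. No single member led the hexokinases, where Hk2 made 51.2% and led in 31 of 49 libraries, Hk1 35.9% and 17 of 49, and Hk3 13.0% and 1 of 49. Slc2a1 (50.3%) and Slc2a3 (49.7%) were level, with Slc2a3 ahead in 27 of 49 libraries. Cells were then cut to 20000 counts each to compare detection at equal depth. A count of both Ldha and Ldhb was found in 735 of 970 Procr+ non-cycling cells (75.8%, exact binomial 95% interval 72.9 to 78.4%; 86.8% before thinning), so most cells held both transcripts.

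Members hardly differed at the first cut of the cell cycle. A gene was called higher or lower in a class at 1.5-fold or more (0.58 on the log2 scale, computed on CPM + 1) among genes at 16 CPM or more in either class. Of the 23 members at that level in the 1263 cycling or 1006 non-cycling Procr+ cells, 0 were called in either direction; of all 7259 genes tested, 3.38% were called higher and 0.565% lower. The median log2 ratio was -0.05 over the members and -0.01 over all genes. The largest departures were in Tpi1, at 600 against 486 CPM and higher in 38 of 49 libraries, and in Aldoa, at 766 against 914 CPM and lower in 42 of 49. The 10 members under the minimum were Gapdh, Pgam1, Slc16a1, Slc16a3, Pdk4, Pfkfb2, Pfkfb3, Pfkfb4, Egln1 and Egln3. In the 1146 intermediate cells, 0 of 23 members were called, against 1.27% of all genes higher and 0.251% lower.

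In upper-mode cycling Procr+ cells, Aldoa and Tpi1, which act next to each other in the pathway, went in opposite directions. Of 27 members tested, 3 were called higher (11.1%) and 6 lower (22.2%), where 14.4% and 13.9% of all 7522 genes were called; the member counts are of the same order as this background. Aldoa stood at 347 CPM against 914 CPM, a log2 ratio of -1.39. In the 5 libraries with at least 5 cells of both classes it was at 257, 384, 337, 201 and 373 CPM in upper-mode cells and at 835, 898, 823, 1112 and 998 CPM in non-cycling cells. The ranges did not overlap. The share of all genes whose library ranges also lack overlap is not given, here or for the classes below. Tpi1 stood at 861 CPM against 486 CPM, a log2 ratio of 0.82. By library it was at 848, 1031, 1062, 625 and 1090 CPM against 473, 565, 361, 502 and 506 CPM, again with no overlap within these 5. The wider Tpi1 range over all libraries with at least 5 non-cycling cells, given above, takes in some of the upper-mode values. Aldoc, the minor aldolase, was at 8.28 CPM against 36.0 CPM (-2.00) and lower in 4 of the 5 libraries. Intermediate cells lay between, with Aldoa at 837 CPM and Tpi1 at 556 CPM. The 117 upper-mode cells had a median of 212407 counts against 123676 in non-cycling cells; with both cut to 20000 counts the log2 ratio was -1.39 for Aldoa and 0.78 for Tpi1.

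**Figure D2:**
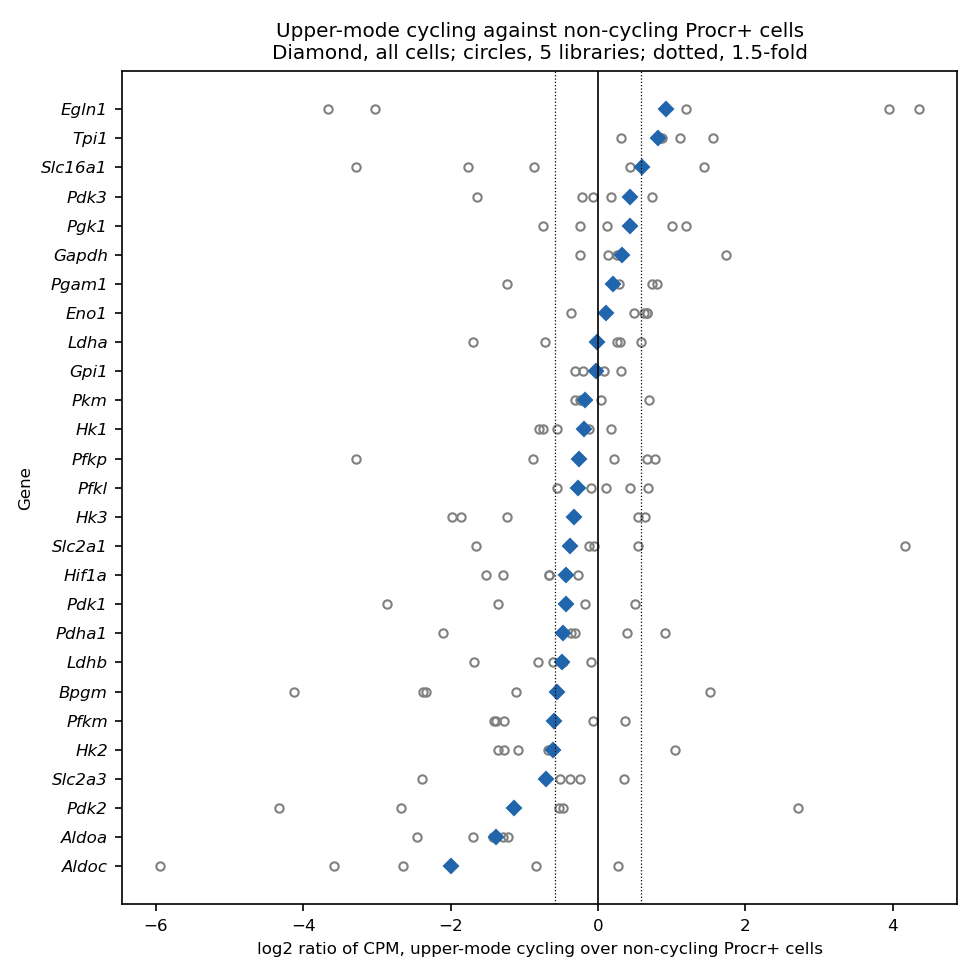
Log2 ratio of CPM + 1 in upper-mode cycling against non-cycling Procr+ cells for the 27 members tested; diamonds are all cells of the class, circles the 5 libraries with at least 5 cells of both classes, and dotted lines 1.5-fold. Aldoa (-1.39) lies left of the dotted line in all 5 libraries, Tpi1 (0.82) lies right of 0 in all 5, and the circles of low genes such as Egln1 scatter to both sides.

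Other calls in these cells were less even between libraries. The glucose carrier Slc2a3 was at 45.9 CPM against 75.4 CPM (-0.70) and Pdk2 at 12.5 CPM against 28.6 CPM (-1.14). Pdk2 reached 94.7 CPM in upper-mode cells of 1 of the 5 libraries, against 13.5 CPM in its non-cycling cells. Slc16a1 was called higher, at 19.4 CPM against 12.5 CPM (0.60), but was higher in 2 of the 5 libraries only. Hk2 (-0.61), Pfkm (-0.59) and Egln1 (0.92) passed the threshold here and lay under it in at least 1 of the checks by cell weight, depth, scaling or libraries. Ldha was not called, at 1008 CPM against 1015 CPM. Ldhb was at 187 CPM against 262 CPM (-0.49, not called) and was lower in all 5 libraries, at 229, 157, 123, 276 and 143 CPM against 318, 277, 397, 294 and 218 CPM, with overlapping ranges. Pkm was at 715 CPM against 802 CPM. Hif1a (19.9 against 27.3 CPM) was not called and was lower in 5 of 5 libraries. Pfkfb3 (4.49 against 13.3 CPM, under the minimum level) was also lower in 5 of 5.

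Cycling cells with little Procr were read in the same way. In 352 Procr-low cycling cells, 1 of 25 members was called higher (8.58% of all genes) and 6 lower (8.41% of all genes). Slc16a1 stood at 25.1 CPM against 12.5 CPM in Procr+ non-cycling cells (0.95) and was higher in 20 of 23 libraries. Hk3 was at 16.9 CPM against 31.8 CPM (-0.87) and lower in 20 of 23. Aldoa (598 CPM, -0.61), Aldoc (21.7 CPM, -0.71), Ldhb (161 CPM, -0.70), Slc2a3 (44.4 CPM, -0.75) and Slc2a1 (25.8 CPM, -0.60) were the others called lower; with the largest library left out, 4 members in all were called. In the 80 Procr-low cells of the upper mode, 2 of 25 members were called higher (15.7% of all genes) and 7 lower (20.1%). Aldoa was at 310 CPM (-1.56), Tpi1 at 786 CPM (0.69), Ldhb at 138 CPM (-0.92) and Slc16a1 at 30.4 CPM (1.22). Aldoa was thus low and Tpi1 high in upper-mode cells at both levels of Procr, as sums over cells that come from many of the same libraries.

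Erythroid-marker cells carried Ldha with almost no Ldhb, little Pkm and high Slc16a1. Their class came from 16 libraries and had Klf1, an erythroid transcription factor, at 502 CPM, against 0.555 CPM in Procr+ non-cycling cells. Of 24 members tested, 3 were called higher (12.5%) and 13 lower (54.2%), where 25.9% and 34% of all genes were called. The median log2 ratio was -0.92 over the members and -0.12 over all 7845 genes. Ldhb stood at 3.12 CPM, from 34 counts, against 262 CPM, a log2 ratio of -6.00. The 95% Poisson interval of 2.16 to 4.36 CPM covers at most counting error, and is too narrow if the counts are reads and not molecules. In the 3 libraries with at least 5 erythroid-marker cells Ldhb was at 1.28 to 2.3 CPM. In the 49 libraries of Procr+ non-cycling cells it was at 140 to 412 CPM, with no overlap. The 3 are not among the 49, so class and library cannot be told apart here or in the library ranges below. Ldha was at 1094 CPM (875 to 1138 CPM) against 1015 CPM. Ldhb thus made 0.396% of the pair per kilobase. After thinning, 4 of 39 erythroid-marker cells (10.3%, interval 2.87 to 24.2%) held a count of Ldhb and 39 of 39 one of Ldha, while Ldhb was found in 76.7% of Procr+ non-cycling cells. Before thinning 46.3% of erythroid-marker cells held an Ldhb count, at a median of 246250 counts per cell.

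Pkm was at 52.1 CPM (23 to 62.5 CPM by library) against 802 CPM (601 to 1080 CPM), a log2 ratio of -3.92. The libraries did not overlap. Pklr, the other pyruvate kinase gene, is not a member, and its level is not given here. Total pyruvate kinase therefore cannot be read from Pkm. Slc16a1, which carries lactate and pyruvate in either direction, was at 86.9 CPM (50.5 to 143 CPM) against 12.5 CPM (0 to 39.3 CPM), a log2 ratio of 2.70. It too did not overlap. The glucose carriers were both lower, Slc2a1 at 2.39 CPM (-3.59) and Slc2a3 at 16.8 CPM against 75.4 CPM. Among hexokinases Hk2 was at 67.4 CPM (-1.66) and Hk3 at 1.74 CPM (-3.58), while Hk1 was at 199 CPM (0.76), or 0.24 above on the log2 scale once the library with the most erythroid-marker cells was left out. Hk1 made 78.4% of the hexokinases per kilobase and led in 3 of 3 libraries. Aldoa was at 424 CPM (-1.11), and Aldoc had 3 counts (0.275 CPM). Gpi1 (233 CPM, -0.88), Pfkl (68.1 CPM, -1.02), Pfkp (17.8 CPM, -1.22), Pdk1 (36.1 CPM, -0.97) and Pdk2 (3.76 CPM, -2.64) were lower too. Pdha1 was higher, at 53.7 CPM (0.84). Pfkm, Tpi1, Pgk1, Eno1, Pdk3 and Bpgm were not called. Hif1a was not called over the class (21.9 CPM), but 197 of its 239 counts came from the 12 cells of neutrophil-rich libraries (64.7 CPM, 1.21), and it was at 5.35 CPM (-2.16) in the other 29.

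Since 65.9% of erythroid-marker cells lay in the upper mode of the cycling score, they were also set against the 117 upper-mode cycling Procr+ cells. Here 4 of 25 members were called higher (20.2% of all genes) and 12 lower (32% of all genes). Aldoa was no longer called, at 424 against 347 CPM. Ldhb (-5.51), Pkm (-3.75), Slc2a1 (-3.21), Slc2a3 (-1.40) and Hk3 (-3.25) were still lower, Slc16a1 (86.9 against 19.4 CPM) and Pdha1 (1.31) still higher. Pgam1, phosphoglycerate mutase, was lower in this contrast at 4.50 against 17.3 CPM (-1.74). Without the neutrophil-rich libraries Ldhb was at 3.70 CPM and Pkm at 60.3 CPM, and with Mecom and Hlf under 10 CPM they were at 1.88 and 43.2 CPM. Of the 16 calls against Procr+ non-cycling cells, 14 were kept in each of the other settings apart from the 2-fold threshold; Hk1 and Pfkl were not.

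**Figure D3:**
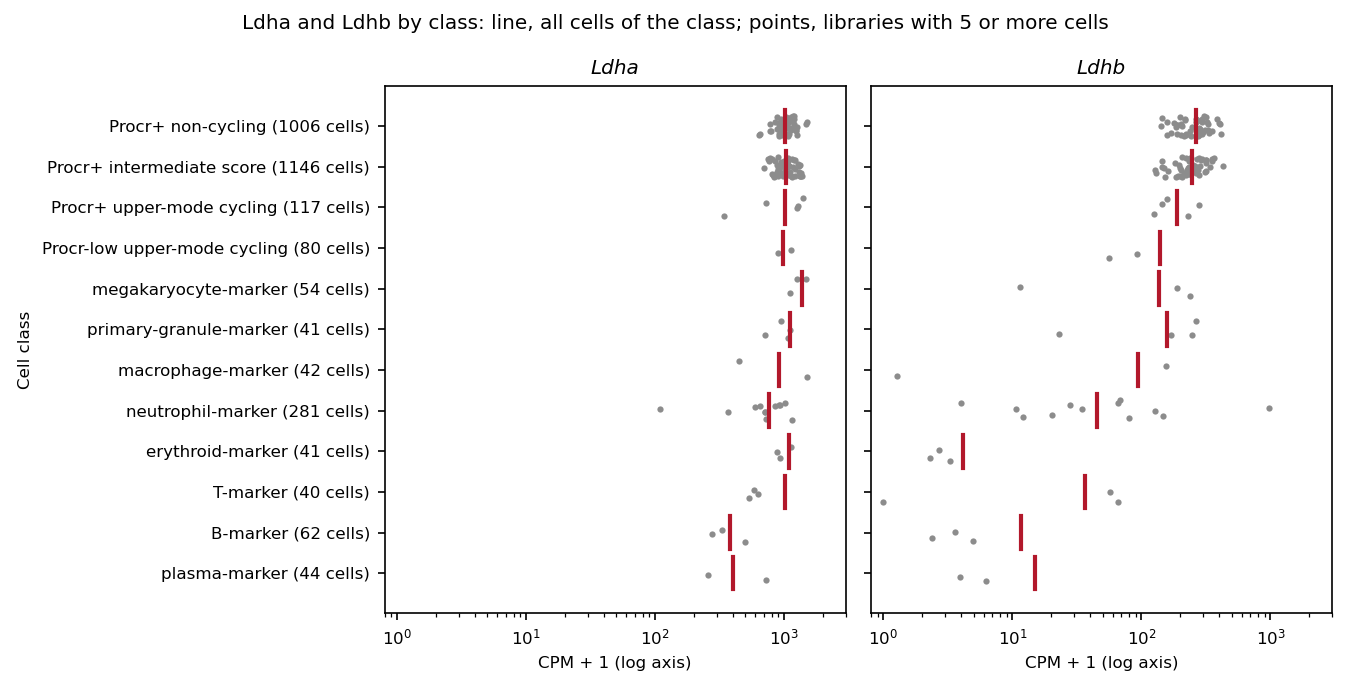
CPM + 1 of Ldha and Ldhb (log axis) in each cell class; the line is the whole class and each point a library with at least 5 cells of the class. Ldha stays between 383 CPM (B-marker) and 1367 CPM (megakaryocyte-marker) in the classes compared. Over whole classes Ldhb runs from 3.12 CPM in erythroid-marker to 262 CPM in Procr+ non-cycling cells. With Mecom and Hlf under 10 CPM (not drawn), Ldhb was at 1.88 CPM in erythroid-marker, 2.18 in plasma-marker, 2.76 in B-marker and 31.8 in T-marker cells. In the drawing 1 library of neutrophil-marker cells stands at 970 CPM of Ldhb.

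B-marker and plasma-marker cells were low in both lactate dehydrogenases, T-marker cells in Ldhb. In B-marker cells, where Cd79a of the B-cell receptor complex was at 2780 CPM, 1 of 24 members was called higher (4.17%) and 14 lower (58.3%), against 23.7% and 35.4% of all genes. Ldhb was at 10.7 CPM (-4.49) over the class and at 1.37 to 3.97 CPM in 3 libraries. Ldha was at 383 CPM (-1.40) over the class and at 273 to 498 CPM in them. Neither overlapped the library ranges of Procr+ non-cycling cells, which come from other libraries. Pkm was at 295 CPM (-1.44), Tpi1 at 200 CPM (-1.27), Pgk1, phosphoglycerate kinase, at 18.7 CPM (-1.60), Hk1 at 51.2 CPM (-1.18) and Hk2 at 69.0 CPM (-1.63). Pfkm had 5 counts (1.07 CPM, -4.59), so that Pfkl (69.6%) and Pfkp (28.7%) made nearly all phosphofructokinase per kilobase, and Pdk2 had 3 counts (0.643 CPM). Gpi1 (-0.99), Pfkl (-1.30), Aldoc (-2.36), Hk3 (-0.79) and Slc2a3 (-1.90) were lower as well. Hif1a was the 1 member called higher, at 53.8 CPM against 27.3 CPM (0.95; 63.7 to 96.1 CPM in 3 libraries, inside the 0 to 133 CPM of the Procr+ non-cycling libraries). One library held 25 of the 62 cells. Without it 14 of the 15 calls were kept, and Hk3 was not. In the 49 B-marker cells with Mecom and Hlf under 10 CPM, Ldhb was at 2.76 CPM, Hk1 at 20.7 CPM and Hk3 at 1.93 CPM. In the other 13 cells these were at 38.3, 157 and 73.7 CPM, so the class values mix 2 unlike sets.

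In plasma-marker cells 2 of 24 members were called higher (8.33%) and 18 lower (75%), against 22.3% and 42.7% of all genes. Ldhb was at 14.0 CPM (-4.13), Ldha at 398 CPM (-1.35), Pkm at 271 CPM (-1.56), Eno1, the main enolase, at 158 CPM (-1.08) and Tpi1 at 256 CPM (-0.92). Both glucose carriers were low, Slc2a1 at 2.84 CPM (-3.41) and Slc2a3 at 8.53 CPM (-3.00). Pfkp was higher, at 97.8 CPM against 42.7 CPM (1.18). It was at 126 CPM (1.54) in the 31 cells with Mecom and Hlf under 10 CPM but at 6.94 CPM (-2.46) in the other 13. Ldhb was at 2.18 and 51.6 CPM in the same sets. Gapdh, the other member called higher (0.92), changed sign when each cell was weighted equally. The remaining members called lower were Hk1, Hk2, Hk3, Gpi1, Pfkl, Pfkm, Aldoc, Pdk1, Pdk3, Pdha1 and Bpgm. Their log2 ratios ran from -2.71 (Hk3) to -0.62 (Bpgm). Of the 20 calls 14 were kept in the other settings apart from the 2-fold threshold; Hk2, Pfkl (-0.46 with Mecom and Hlf under 10 CPM), Pdk1, Pdk3, Bpgm (-0.39 without the neutrophil-rich libraries) and Gapdh were not.

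In T-marker cells 5 of 25 members were called higher (20%) and 13 lower (52%), against 26.5% and 29.8% of all genes. Ldhb was at 35.7 CPM (-2.84; 0 to 64.7 CPM in 3 libraries). Ldha was at 1007 CPM in the class, as in Procr+ non-cycling cells, but at 534 to 621 CPM in the 3 libraries with at least 5 T-marker cells, below the 642 to 1509 CPM of Procr+ non-cycling libraries, so the class value comes from its other libraries. Hk3 was at 1.96 CPM (-3.47), Pfkm at 12.0 CPM (-1.95), Slc2a1 at 12.4 CPM (-1.61), Slc2a3 at 29.4 CPM (-1.33), Aldoc at 3.53 CPM (-3.03) and Pdk2 at 5.10 CPM (-2.28). Pfkp was higher at 74.9 CPM (0.80; 61.4 to 364 CPM by library) and Slc16a1 at 38.1 CPM (1.53; 8.1 to 42.3 CPM). Hif1a (0.94), Pdha1 (0.88) and Egln3 (1.31) passed the threshold too, but each lost it in at least 1 other setting; Pdha1 and Egln3 changed sign without the neutrophil-rich libraries. Hk2, Pfkl, Aldoa, Pkm, Pdk3 and Bpgm were the other members called lower, at log2 ratios of -0.82 to -0.63. Of the 18 calls 11 were kept in the other settings apart from the 2-fold threshold; besides the 3 named, Hk2 (-0.28 without the neutrophil-rich libraries), Aldoa, Slc2a1 and Bpgm (-0.31 with Mecom and Hlf under 10 CPM) were not. The share of thinned cells with an Ldhb count was 9.8% in B-marker (5 of 51), 14.3% in T-marker (5 of 35) and 8.57% in plasma-marker cells (3 of 35).

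Neutrophil-marker cells had more Slc16a3, Slc16a1 and Hk3 and less Hk1 than Procr+ non-cycling cells. Of 31 members tested, 11 were called higher (35.5%) and 9 lower (29%), against 27.2% and 26.1% of all genes. The member counts are of the same order as this background. Slc16a3, the lactate exporter of strongly glycolytic cells, was at 51.9 CPM against 4.09 CPM (3.38); it was at 21.5 CPM outside the neutrophil-rich libraries and at 70.4 CPM in the 167 cells with Mecom and Hlf under 10 CPM. Slc16a1 was at 24.7 CPM (0.93), and Slc16a3 made 68.2% of the pair per kilobase. In the single libraries, however, Slc16a1 led in 9 of 12, so the share of the class rests on the libraries with most of its cells. Hk3, a hexokinase of myeloid cells, was at 82.5 CPM (1.35) and made 45.9% of the hexokinases, with Hk1 at 61.5 CPM (-0.92) and Hk2 at 87.2 CPM (-1.29). Ldhb was at 44.4 CPM (-2.54) in all neutrophil-marker cells, at 135 CPM outside the neutrophil-rich libraries and at 9.03 CPM with Mecom and Hlf under 10 CPM. Aldoc (12.3 CPM, -1.48) and Pdk2 (11.9 CPM, -1.20) kept their calls in every other setting; Hk2 lost its call without the neutrophil-rich libraries.

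Other neutrophil-marker calls turned with the libraries. Slc2a3 was at 139 CPM (0.88) over all cells and at 39.2 CPM (-0.93) without the neutrophil-rich libraries. Pdk4, an inhibitor kinase induced by fasting in other tissues, was at 53.4 CPM (4.47), but 1807 of its 1808 counts came from the other libraries, 1 of which reached 6706 CPM, and its level was 0.14 CPM in the 167 cells with low Mecom and Hlf. Pfkm (-1.34) and Pfkfb3 (0.82) changed sign without the neutrophil-rich libraries. Pfkfb4 was at 34.0 CPM (1.91), Egln1 at 22.9 CPM (1.37), Hif1a at 54.4 CPM (0.97), Gapdh at 28.0 CPM (0.94) and Gpi1 at 653 CPM (0.60). Pfkl (-0.76), Pdk3 (-0.62) and Bpgm (-1.05) were lower. Each of these 8 lost its call in at least 1 other setting. Pkm was at 908 CPM and Ldha at 767 CPM, neither of them called.

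Macrophage-marker, megakaryocyte-marker and primary-granule-marker cells gave few calls kept in all settings. In the 42 macrophage-marker cells 6 of 28 members were called higher and 11 lower, against 30.2% and 23.1% of all genes, and 14 cells came from 1 library. The class held 2 unlike sets of cells. Ldhb was at 93.4 CPM (-1.48) over the class, at 1.06 CPM (4 counts, -6.99) in the 20 cells with Mecom and Hlf under 10 CPM and at 172 CPM (-0.61) in the other 22. Ldha was at 384 and 1375 CPM, and Hk1 at 2.39 and 127 CPM, in the same sets. Hif1a was at 147 CPM (2.38) in the 20 cells and at 16.7 CPM (-0.68) in the 22, and the phosphofructokinase regulators Pfkfb3 (85.4 and 0.903 CPM) and Pfkfb4 (58.5 and 3.84 CPM) were split in the same direction. Hif1a, Pfkfb3 and Pfkfb4 were called higher over the class (1.45, 1.51 and 1.68) and were lower than in Procr+ non-cycling cells without the library with most cells. The 20 cells came from 5 libraries, and without the neutrophil-rich libraries the remaining 23 cells had Hlf at 219 CPM. Hk2 (60.2 CPM over the class, 33.8 and 82.7 CPM in the sets) and Slc16a1 (26.4 CPM, 24.7 and 27.8 CPM) were called on the same side in both sets. In the 54 megakaryocyte-marker cells 1 of 25 members was called higher and 6 lower, against 15.5% and 18.8% of all genes. Hk3 (5.73 CPM, -2.29), Slc2a1 (19.1 CPM, -1.02) and Aldoc (14.8 CPM, -1.23) kept their calls. Ldhb (136 CPM, -0.94), Pdk1 (43.8 CPM, -0.69) and Aldoa (589 CPM, -0.63) were called lower too but did not keep their calls in every setting. Slc16a1 (40.1 CPM, 1.61) was at 11.3 CPM in the 10 cells with Mecom and Hlf under 10 CPM, and Ldha was at 1367 CPM, not called. In the 41 primary-granule-marker cells 2 of 27 members were called higher and 6 lower, against 16.2% and 20.2% of all genes. Egln3, a hydroxylase induced by hypoxia, was at 25.0 CPM against 6.47 CPM (1.80), Slc2a3 at 32.5 CPM (-1.19) and Pdk2 at 11.9 CPM (-1.20), and these 3 kept their calls, although the setting with Mecom and Hlf under 10 CPM held 7 cells.

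Within Procr+ non-cycling cells, the 249 cells with Cd34 and Flt3, genes of early progenitors, were set against 78 cells low in Cd34 with Slamf1 (the gene of CD150). Of 25 members, 3 were called higher in the Cd34+ Flt3+ cells (12.2% of all genes) and 1 lower (10.3%). Slc2a1 was at 49.3 against 29.1 CPM (0.74), Pgam1 at 17.4 against 10.4 CPM (0.70), Pdha1 at 32.7 against 19.9 CPM (0.69) and Pdk2 at 23.2 against 36.7 CPM (-0.64). All 4 lay under the threshold when the cycling cut was moved up by 1 log2 unit. Ldha was at 923 against 1174 CPM and Ldhb at 239 against 252 CPM. No member's call between these gates was kept in all other settings.

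The leading paralogue was the same across classes in 4 families and changed in 5, some of them near ties in Procr+ non-cycling cells. Per kilobase, Aldoa, Ldha, Pfkl and Pdk3 led their families in Procr+ non-cycling cells and in all 10 classes compared with them. As counted, without the division by length, Pfkl led in 9 of the 10 and Pdk3 in 7. Hk2 led the hexokinases in 6 classes, Hk1 in 3 (erythroid-marker, T-marker and macrophage-marker) and Hk3 in neutrophil-marker cells. Slc2a1 led the glucose carriers in 4 classes, with 77.7% in B-marker cells, and Slc2a3 in 6, with 78.6% in erythroid-marker cells. Slc16a1 led the lactate carriers in 9 of 10 classes, with 97.6% in erythroid-marker cells. Pfkfb3 and Pfkfb4 each led in 5 classes, and Egln1 led over Egln3 in 8. The last 2 families stand on low counts in most classes. Leaders of 3 classes changed with Mecom and Hlf under 10 CPM. Hk3 then made 70.5% of the hexokinases and Pfkfb3 49.0% of its family in macrophage-marker cells (20 cells). In megakaryocyte-marker cells (10 cells) Hk1 (55.1%), Slc2a1 (51.3%) and Slc16a3 (52.7%) led, and in primary-granule-marker cells (7 cells) Slc2a3 (89.9%) and Pfkfb3. Of 90 pairs of a family and a class, the leader differed from that of Procr+ non-cycling cells in 24, or in 14 as counted, so the number depends on the length correction. In Procr+ non-cycling cells Slc2a1 and Slc2a3 were level, and Egln3 led per kilobase although Egln1 had the higher CPM. These 2 families gave 6 and 8 of the 24, so those changes of leader start from near ties.

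**Figure D4:**
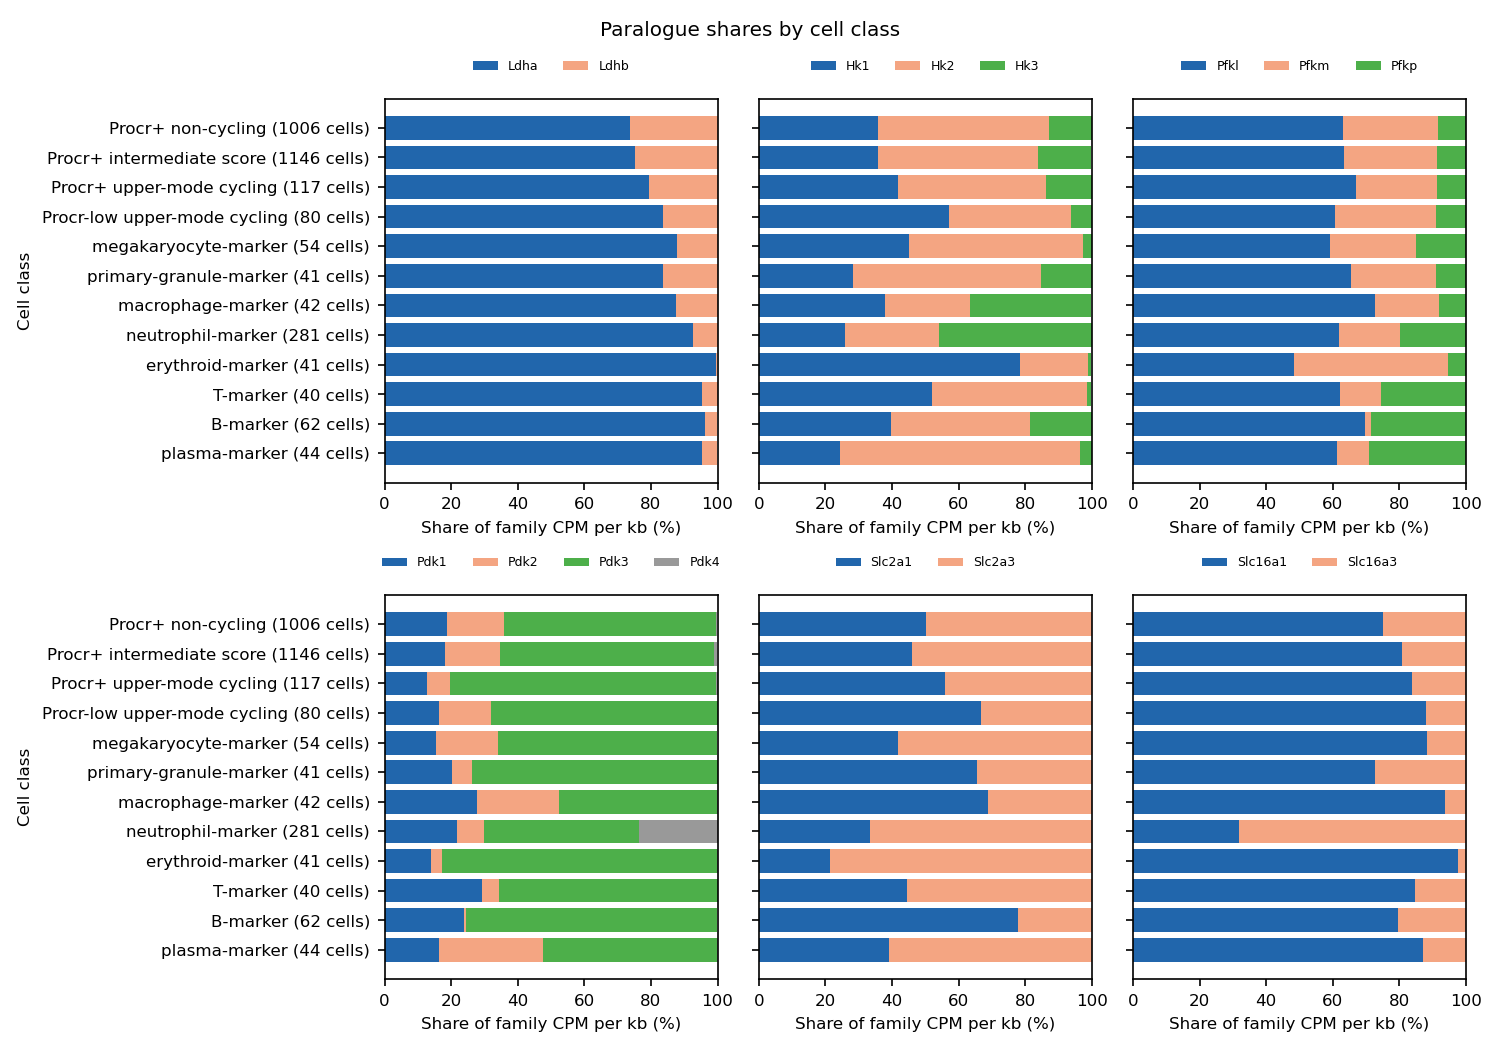
Share of each paralogue in the summed CPM per kilobase of its family (percent, stacked to 100) for 6 families and 12 cell classes. The Ldhb part shrinks from 26.4% in Procr+ non-cycling cells to 0.396% in erythroid-marker cells, and Slc16a3 takes 68.2% of the lactate carriers in neutrophil-marker cells.

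Other genes of the neighbouring pathways were read from 3 lists, none of whose genes is a member. The first holds 30 genes linked to HIF, the second 19 genes of pyruvate oxidation and shuttles, the third 37 genes of the pentose phosphate pathway and side branches. Between cycling and non-cycling Procr+ cells at the first cut, 0 genes of any list were called. In upper-mode cycling Procr+ cells 1 of 17 HIF-linked genes tested was called higher and 6 lower, with a median log2 ratio of -0.41. Higd1a, a mitochondrial protein induced by hypoxia, was at 315 against 163 CPM (0.95), and Ddit4, a stress-induced inhibitor of mTOR signalling, at 6.03 against 20.7 CPM (-1.63). Of 13 genes of pyruvate oxidation 2 were called higher and 0 lower. Of 21 genes of the third list 3 were called higher and 1 lower; Psat1 and Shmt1, enzymes of serine synthesis and serine use, were at 158 against 58.6 CPM (1.42) and at 59.2 against 22.5 CPM (1.36), and Pgd of the pentose phosphate pathway at 55.1 against 92.1 CPM (-0.73).

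In erythroid-marker cells 6 of 14 genes of pyruvate oxidation were called higher and 3 lower. The mitochondrial malic enzyme Me2 was at 119 against 24.7 CPM (2.22) and the citrate synthase Cs at 188 against 77.8 CPM (1.26). Of 18 HIF-linked genes 4 were called higher and 8 lower, and of 22 genes of the third list 9 higher and 6 lower; Pgls of the pentose phosphate pathway was at 486 against 234 CPM (1.05), the glycogen branching enzyme Gbe1 at 4.68 against 46.8 CPM (-3.07). In B-marker cells 12 of 21 genes of the third list were called lower and 4 higher, with Pygl, a glycogen phosphorylase, at 5.79 against 70.4 CPM (-3.39). In neutrophil-marker cells 10 of 24 genes of that list were called higher and 3 lower, and Pygl was at 256 CPM (1.85). Among the HIF-linked genes there, Vegfa, an angiogenic growth factor, was at 18.8 against 2.48 CPM (2.50). In plasma-marker cells 11 of 18 HIF-linked genes were called lower and 3 higher, with a median log2 ratio of -1.71. The same background shares as for the members apply, and no list was tested against other genes.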

How the data were processed

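The authors deposited 1 matrix of raw counts per gene and cell from a 3′-enriched single-cell protocol; the sources used here do not say whether these are reads or molecules. Trimmomatic 0.36, HISAT2 2.1.0, HTSeq 0.9.1 and GRCm38 are named, per the submitters' processing notes. 17 columns of 1 library that no sample label covers were not used.

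Kept cells had at least 1000 genes and at most 10% mitochondrial counts; 76 and 10 cells were left out. No doublet caller was run, as cells were sorted singly. Counts were summed per class and scaled to the class total (CPM). Folds use a pseudocount of 1 CPM. All genes at 16 CPM or more in either class were compared, and 1.5-fold or more was called. Library values need 5 cells of a class. Cells of 1 pooled sample are not replicates, so no test or p-value was made. Intervals (exact Poisson for counts, exact binomial for shares, 95%) cover counting error only. The Poisson intervals take counts as independent, which reads copied from the same molecule are not. Paralogue shares used counts per kilobase of the longest GENCODE transcript. Shared sequence was counted in words of 50 bases.

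All 33 members were accounted for. Values or ranges were given for most members past 1.5-fold and for leading paralogues. In macrophage-marker, primary-granule-marker and Procr-low upper-mode cells only some of the called members were named. The same holds between erythroid-marker and upper-mode cells. From the other lists, values were given only for genes among the 3 highest and 3 lowest in a comparison. Members and lists were chosen with earlier results of these data known. The cycling cut chosen first divided the score low; the upper-mode cut, the subsets by Mecom and Hlf and those without neutrophil-rich libraries were added after seeing the data. Alternatives changed cell weights, depth (20000 counts), scaling, gene minimum (2000), Procr level (50 CPM), cycling cut, libraries, minimum level, fold and length scale. Python 3.11.15, numpy 2.4.6, scipy 1.17.1 and matplotlib 3.10.9 were used.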

Additional observations from a re-analysis of the deposited data

How the results depend on the processing

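Over the alternatives, 1252 values of called members kept their direction and side of the threshold, 174 passed below it and 22 changed sign. Of the 1252, 132 came from dropping the minimum level, which cannot change a call already made. For the changes given here the cause was not tested, except that a 2-fold threshold calls fewer members and no minimum level tests more. No paired analysis was possible because the cells could not be tied to samples or replicate numbers; libraries, which are not replicates, were set side by side in the report instead. Depth limits low genes: Pdk4, Egln3 and Slc16a3 rest on few counts in most classes.

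With cells weighted equally, 4 members were called in Procr-low cycling cells and 1 between the Cd34 and Slamf1 gates, T-marker Bpgm was at 0.24 and plasma-marker Gapdh at -0.27 (log2 ratios). With cells thinned these were 4, 2 and, for Gapdh, -0.07. With Procr at 50 CPM, 4 were called in Procr-low cycling and 4 in primary-granule-marker cells, and neutrophil-marker Bpgm was at 0.58. With the cycling cut up by 1, 0 were called between the Cd34 and Slamf1 gates. Without the library with most cells, 4 were called in Procr-low cycling and 6 in macrophage-marker cells, where Hk1 was at 0.06, Pfkfb3 at -2.63, Pfkfb4 at -1.06 and Hif1a at -0.42. With no minimum level the calls were 2 in cycling, 11 in Procr-low cycling, 13 in primary-granule-marker, 23 in B-marker and 12 in megakaryocyte-marker cells and 9 between the Cd34 and Slamf1 gates. At 2-fold they were 0 in Procr-low cycling, 11 in neutrophil-marker, 5 in primary-granule-marker, 9 in T-marker, 11 in macrophage-marker and 4 in megakaryocyte-marker cells and 0 between those gates. As counted, 14 pairs of a family and a class had another leader. 

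In the settings added after seeing the data, Mecom and Hlf under 10 CPM gave 18 calls in primary-granule-marker (7 cells) and 13 in megakaryocyte-marker cells (10 cells), neutrophil-marker Pdk4 at -1.11, primary-granule-marker Hif1a at 0.55 and megakaryocyte-marker Slc16a1 at -0.14. Without the neutrophil-rich libraries, 12 members were called in neutrophil-marker cells, with Pfkm at 0.52, Slc2a3 at -0.93 and Pfkfb3 at -0.35. Macrophage-marker cells then had 9 calls, with Hk1 at 0.18, Pfkp at 0.03, Pfkfb3 at -2.88, Pfkfb4 at -1.05 and Hif1a at -0.62. T-marker Pdha1 was at -0.78, T-marker Egln3 at -0.47 and plasma-marker Gapdh at -0.13. The upper-mode cut gave 9 calls in cycling Procr+ cells.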
